A study of Mus musculus with 96 samples.

Results

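Leukaemias that began in an early or in a later blood progenitor were followed by DNA barcodes in mice with an intact immune system. The comparison set 3 Ptprca mice given cells of LSK origin against 4 Ptprca mice given cells of GMP origin, each sampled in bone marrow and spleen. These 14 mouse tissues were chosen by the recipient strain and the transplanted population, as labelled, out of 48 mouse tissues and cell pools in the whole series. The LSK mice are numbered 1 to 3 and the GMP mice 5 to 8.

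Both leukaemias were started outside the body from bone marrow of female C57BL/6 donors aged 6 to 8 weeks. LSK cells were sorted as Lin-, c-Kit+ and Sca-1+, and GMP cells as Lin- and c-Kit+ cells with CD34 and an Fc gamma receptor. All groups shared the same driver, an MLL-AF9 retrovirus, and were grown with interleukin-3, interleukin-6 and stem cell factor before they received a SPLINTR barcode library. Cells of LSK origin carried the GFP library and cells of GMP origin the mCherry library. The labels give neither the age or sex of the recipients, nor the number of cells injected, nor the time of sampling. All mice of 1 origin received cells of a single barcoded pool, so the mice replicate the transplantation and not the making of the leukaemia. Origin and barcode library therefore cannot be told apart in these groups. Barcode counts hold no marker genes, so the identity of the cells rests on the sort.

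MLL-AF9 joins the histone methyltransferase MLL to a partner that brings in the transcription elongation machinery, and it keeps a stem-cell programme active in myeloid progenitors. LSK is a population of stem and early multipotent progenitor cells, whereas GMP (granulocyte-monocyte progenitors) are committed to the myeloid lineage. Both can give rise to acute myeloid leukaemia when they carry this fusion. A SPLINTR barcode is a heritable DNA tag, so the reads of a tag in a tissue show how much of the leukaemia descends from the cell that first took it up. Here a barcode is called a clone. A cell that took up more than 1 barcode would be counted as more than 1 clone.

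Each library was rescaled to the reads of its own barcode library, since GFP and mCherry barcodes were counted in the same columns. The mouse libraries held 5437021 to 7578293 reads. A clone with 0 reads could then hold at most 5.52e-05% of any of these 14 libraries. This limit and the Wilson intervals below cover counting error only, since PCR reads are not independent molecules. Most libraries matched their label closely: in LSK mice, 0.0117% to 0.0523% of reads came from the mCherry library. The GMP libraries stood further apart. GFP barcodes made up 0.944% of the reads in bone marrow of GMP mouse 6 and 0.191% in bone marrow of GMP mouse 8. In spleen of GMP mouse 7, 2.92% of all reads lay in 903 barcodes that no pool contained, the largest of them at 0.0117%. Origin differences that changed sign or moved by more than 1.5 times when these 3 libraries were left out are given with and without them.

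The pools from which the mice were grafted were alike in shape. The LSK pool had 679 clones at or over 100 CPM (CPM, counts per 1000000 reads; this level, 0.01% of reads, is called detected below), and the GMP pool had 607. The effective number of clones, which is how many equally large clones would give the same Shannon diversity, was 296 in the LSK pool and 269 in the GMP pool. The largest clone made up 2.55% of LSK and 3.24% of GMP pool reads, and 334 and 297 clones held 90% of the reads. Each pool was sequenced as a single library, so these values have no replicate error. By each of these counts of clones the LSK pool was somewhat richer than the GMP pool. Clones for 90% of reads and expanded clones of the mice were not set relative to the pool counts.

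In bone marrow, leukaemias of LSK origin were spread over more clones than those of GMP origin. The LSK mice had 110, 113 and 126 detected clones and the GMP mice 98, 89, 89 and 80, a ratio of 1.31. Effective clones numbered 19.4, 15.6 and 20.3 in the LSK mice and 11.8, 12.2, 11.5 and 10.3 in the GMP mice, a ratio of 1.60. The number of clones needed to hold 90% of the reads was 27, 23 and 28 against 13, 13, 13 and 10, a ratio of 2.13. In each of these measures the lowest LSK mouse lay above the highest GMP mouse. The LSK pool was itself richer, and relative to the pools the log2 difference in detected clones was 0.23 in place of 0.39 (exact permutation p = 0.0571, adjusted 0.102). Relative to the pools, effective clones differed by 0.54 log2 in place of 0.68, still without overlap (exact permutation p = 0.0286, adjusted 0.0508). Both were far below their pools: the mean number of effective clones in bone marrow was 18.4 ± 2.47 (SD, n = 3) for LSK and 11.5 ± 0.823 (SD, n = 4) for GMP.

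Clone counts depended on how faint a clone was allowed to be. Counted at any level above 0, the bone marrow held 349, 280 and 308 clones in the LSK mice and 225, 263, 213 and 764 in the GMP mice. The high value belonged to GMP mouse 8, in which 171 clones reached 10 CPM, within the 136 to 179 of the other GMP mice. In spleen, GMP mouse 7 had 1070 clones above 0 against 170 to 282 in the other 3 GMP mice. The counts at 100 CPM leave out all barcodes below that level. Of the clones they do contain, 5 in spleen of GMP mouse 7 and 1 in spleen of GMP mouse 5 were not in the pool.

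The rank-abundance curves of bone marrow parted below the largest clone. The largest clone held 27.2%, 33.0% and 23.7% of the reads in the LSK mice and 30.6%, 25.3%, 28.9% and 28.0% in the GMP mice, and these ranges overlap. The second clone was larger in the GMP mice, at 18.8%, 23.9%, 19.5% and 23.2%, than in the LSK mice, at 14.1%, 11.96% and 13.2%. The 10 largest clones together held 76.2%, 78.9% and 76.8% in the LSK mice and 87.8%, 88.0%, 88.5% and 90.6% in the GMP mice. The clones ranked 11 to 50 held 20.2%, 17.9% and 18.9% of LSK reads but 10.3%, 10.3%, 9.64% and 8.36% of GMP reads. Clones beyond rank 50 held 3.58%, 3.15% and 4.25% of LSK reads and 1.88%, 1.69%, 1.88% and 1.08% of GMP reads. The groups were thus apart in the second clone, the middle ranks and the tail, but not in the largest clone.

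**Figure D1:**
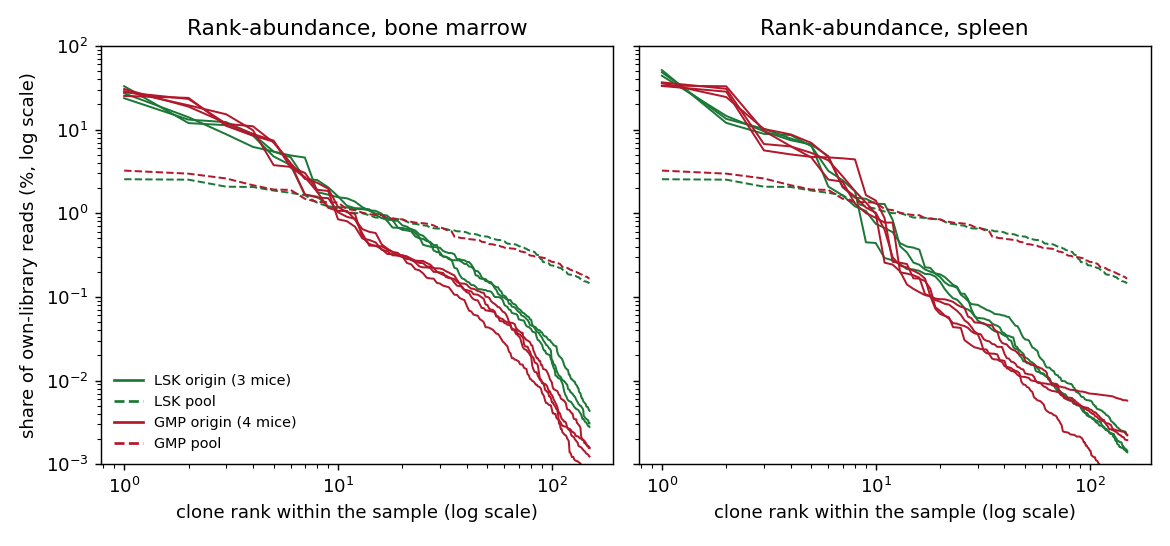
Share of own-library reads (percent, log scale) against clone rank (log scale) in bone marrow and spleen, 1 solid line per mouse (green LSK, 3 mice; red GMP, 4 mice), with the pools as dashed lines. In bone marrow the GMP lines lie above the LSK lines at rank 2, and from beyond rank 10 to the right edge all LSK lines lie above all GMP lines. In spleen 1 GMP line, mouse 7, runs flat at the right.

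The spleen showed a different contrast. A single clone held more of the spleen in LSK mice, with 44.1%, 51.4% and 48.5% of reads, than in GMP mice, with 33.6%, 36.7%, 33.2% and 36.0%. The next clone then followed far behind in LSK spleens, at 14.6%, 12.02% and 13.4%, and close behind in GMP spleens, at 32.9%, 30.7%, 28.4% and 24.5%. Effective clones were few in both origins, 7.77, 6.21 and 7.11 against 6.83, 6.56, 9.47 and 6.96, and the groups overlapped. Without GMP mouse 7, the spleen among the 3 libraries named above, the log2 difference in effective clones was 0.046 in place of -0.07. The clones that held 90% of reads numbered 8, 6 and 7 in LSK spleens and 7, 6, 8 and 6 in GMP spleens, a log2 difference of 0.05, or 0.14 without GMP mouse 7. Detected clones numbered 65, 65 and 73 in LSK spleens and 65, 55, 53 and 47 in GMP spleens, with 1 tie between the groups.

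The 8 measures in both tissues made 16 comparisons of origin, tested by exact two-sided permutation over mice. With 3 mice against 4 there are 35 assignments, and the smallest possible p is 0.0286. The groups did not overlap in 9 of the 16 comparisons (56.2%), and each of these 9 had that smallest p. After Benjamini-Hochberg adjustment over the 16 tests the same comparisons had an adjusted p of 0.0508, so 0 of 16 passed the threshold of 0.05. The measures are computed from the same libraries and are not independent of each other. In bone marrow, the LSK minus GMP difference was 0.39 in log2 detected clones, 0.68 in log2 effective clones and 1.09 in log2 clones for 90% of reads, and the top 10 share differed by -11.4 percentage points. In spleen, the largest clone differed by 13.1 percentage points. The largest clone of bone marrow differed by -0.20 points (exact permutation p = 0.971), or by -1.76 points without the bone marrows of GMP mice 6 and 8, and effective clones of spleen by -0.07 log2 (exact permutation p = 0.743).

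**Figure D2:**
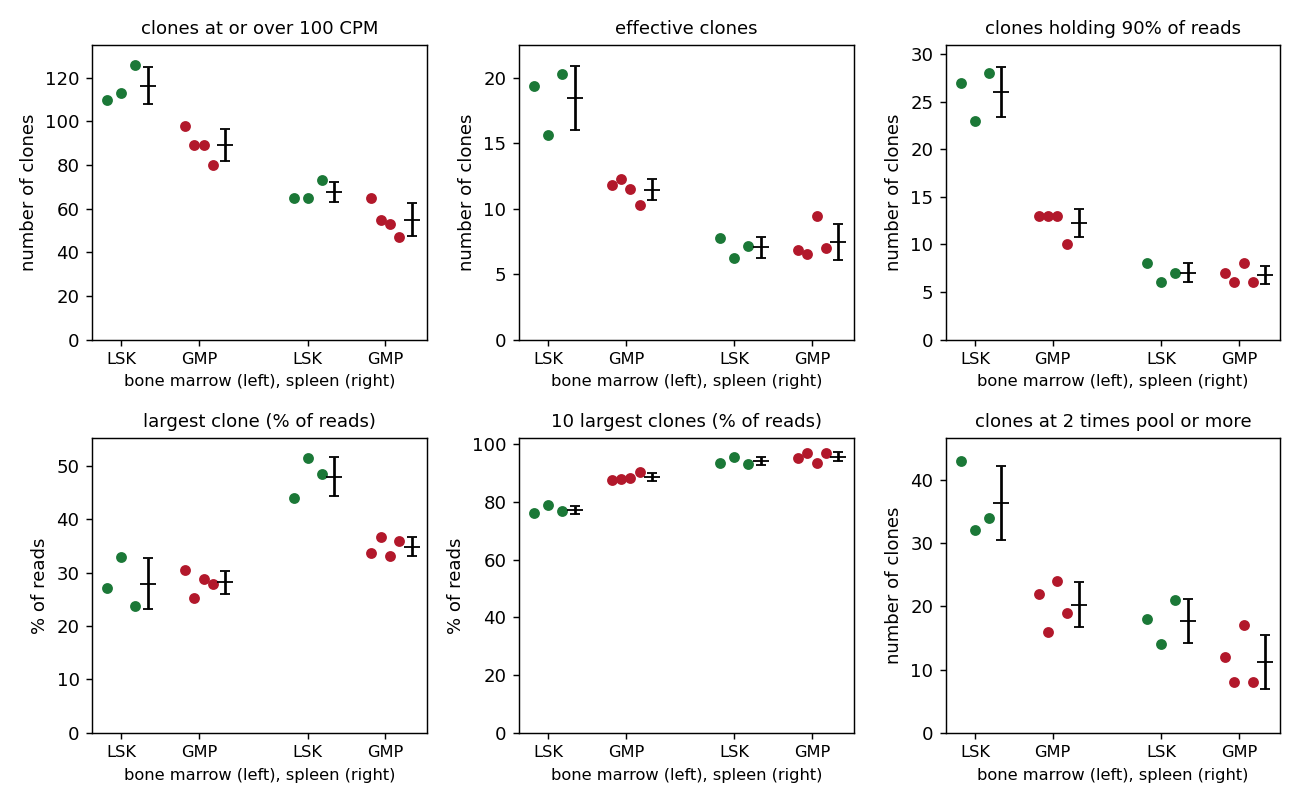
Per-mouse values of 6 measures, as numbers of clones or percent of own-library reads, in bone marrow (left of each panel) and spleen (right). Points are mice (green LSK, n = 3; red GMP, n = 4) and black bars the mean ± SD; in bone marrow the groups are apart in all panels but that of the largest clone, and in spleen only in that of the largest clone.

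The contrast between tissues was taken within each mouse as bone marrow minus spleen. Log2 effective clones were higher in bone marrow by 1.39 ± 0.11 (SD, n = 3) in LSK mice and by 0.63 ± 0.27 (SD, n = 4) in GMP mice. For the largest clone, bone marrow minus spleen ran from -24.8 to -16.9 percentage points in LSK mice and from -11.5 to -3.07 points in GMP mice. The groups did not overlap in 6 of the 8 measures. Effective clones, clones for 90% of reads, the largest clone and the top 10 share had the smallest exact permutation p of 0.0286 (adjusted over 8 tests 0.0571). The top 50 pool share (exact permutation p = 0.0571, adjusted 0.0914) and the pool-rare share, that of clones under 100 CPM in the pool (exact permutation p = 0.143, adjusted 0.163), did not overlap either. After adjustment 0 of 8 passed, and 4 of 8 had an unadjusted p under 0.05. Every mouse of both origins had more detected clones in bone marrow than in spleen. Between 53 and 65 clones were detected in bone marrow and not in spleen of an LSK mouse, and between 41 and 47 in a GMP mouse. Bray-Curtis distance, the share of reads that would have to move between clones to make both tissues equal, was 29.6% to 38.5% between the tissues of an LSK mouse and 27.9% to 30.8% in GMP mice.

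A single clone led the LSK leukaemias of every mouse and both tissues. GFP_Barcode_1859 was the largest clone in all 6 LSK libraries. It held 27.2%, 33.0% and 23.7% of bone marrow reads and 44.1%, 51.4% and 48.5% of spleen reads, and was larger in spleen than in bone marrow of every LSK mouse. In the pool it ranked 60th with 0.462% of reads (95% Wilson interval 0.457% to 0.468%), which is 82.1-fold below its mean share in the mice.

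GMP leukaemias had a pair of leading clones in place of 1. mCHERRY_2_Barcode_626161, second in the GMP pool at 2.97%, led all 4 bone marrows with 30.6%, 25.3%, 28.9% and 28.0% and held 33.6%, 30.7%, 28.4% and 24.5% of the spleens. mCHERRY_2_Barcode_283858 ranked 41st in the pool at 0.491% (95% Wilson interval 0.485% to 0.497%). It held 18.8%, 23.9%, 19.5% and 23.2% of the bone marrows and 32.9%, 36.7%, 33.2% and 36.0% of the spleens, and was the largest clone of spleen in mice 6, 7 and 8. Its coefficient of variation over the mice, 8.02%, was the lowest among the 10 largest GMP clones. Like the leading LSK clone, mCHERRY_2_Barcode_283858 was larger in spleen than in bone marrow of every mouse, whereas mCHERRY_2_Barcode_626161 was larger in spleen in mice 5 and 6 and smaller in mice 7 and 8.

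Behind the leading clone, the LSK mice shared a set of smaller clones. GFP_Barcode_7785, the 3rd largest in the LSK pool, held 14.1%, 11.96% and 12.3% of bone marrow and 14.6%, 8.61% and 10.2% of spleen. GFP_Barcode_100907 held 9.63% ± 1.44 of bone marrow and 11.7% ± 1.96 of spleen (SD, n = 3), from 0.533% of the pool. GFP_Barcode_29850 held 8.85% ± 4.13 of bone marrow and 6.94% ± 0.793 of spleen (SD, n = 3), with 4.91%, 8.49% and 13.2% in the bone marrow of mice 1, 2 and 3. GFP_Barcode_2255 was mostly a spleen clone, at 7.46%, 8.90% and 6.52% of spleen and 1.18%, 1.17% and 0.274% of bone marrow. It ranked 382nd in the pool, and its mean share was 109-fold above its pool share. GFP_Barcode_16972 was the least variable of the 10 largest, at 5.46%, 4.78% and 4.68% of bone marrow and 1.49%, 3.22% and 2.09% of spleen.

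The GMP mice likewise repeated the same lesser clones. mCHERRY_2_Barcode_1204592, 4th in the GMP pool, held 12.3% ± 2.00 of bone marrow and 5.14% ± 1.89 of spleen (SD, n = 4). mCHERRY_2_Barcode_4128, the largest clone of the GMP pool at 3.24%, held 8.87%, 7.17%, 9.84% and 11.7% of bone marrow. In spleen the same clone held 2.53%, 1.84%, 1.65% and 2.09%, below its share of the pool in all 4 mice. mCHERRY_2_Barcode_205681 ranked 292nd in the pool and held 6.61% ± 2.12 of bone marrow and 4.76% ± 1.71 of spleen (SD, n = 4), a mean 93.0-fold above the pool. mCHERRY_2_Barcode_307110, 392nd in the pool, was 114-fold above it. Its shares were 1.07%, 1.97%, 0.847% and 1.52% of bone marrow and 4.64%, 6.72%, 4.65% and 10.2% of spleen, so that every spleen was above every bone marrow.

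**Figure D3:**
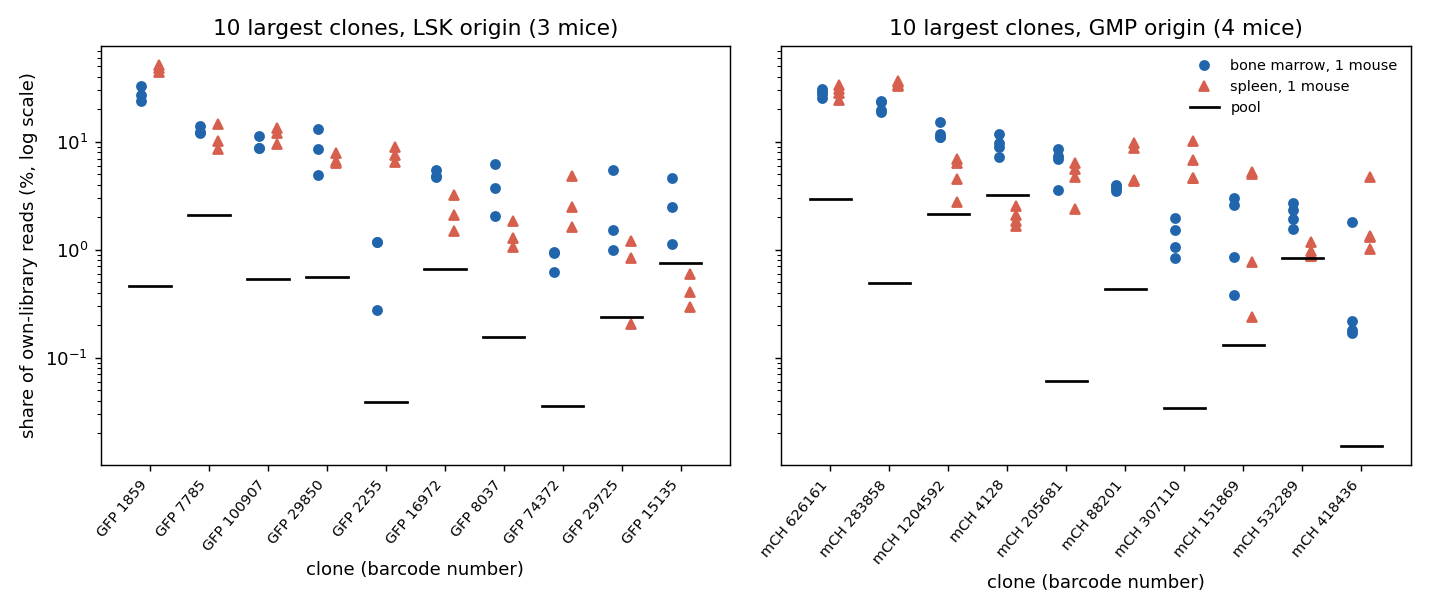
Share of own-library reads (percent, log scale) of the 10 largest clones by mean share, for LSK (left) and GMP (right). Blue circles are bone marrow and orange triangles spleen of single mice, and black bars mark the pool; GFP_Barcode_1859 stands alone at the top for LSK, whereas mCHERRY_2_Barcode_626161 and mCHERRY_2_Barcode_283858 stand together for GMP.

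The shares of some clones differed widely between mice. GFP_Barcode_29725, the most variable of the 10 largest LSK clones, held 5.46% of bone marrow in mouse 3 and 1.51% and 0.987% in mice 1 and 2. GFP_Barcode_43817, at 0.0111% near the lower limit of detection in the LSK pool, held 1.55%, 0.559% and 0.291% of bone marrow and 1.54%, 0.152% and 0.748% of spleen. mCHERRY_2_Barcode_151869 was the most variable of the 10 largest GMP clones: mice 6 and 7 had 2.59% and 3.03% of bone marrow, and mice 5 and 8 had 0.378% and 0.857%. Its spleen shares, 0.774%, 5.27%, 5.05% and 0.237%, set the same mice apart. mCHERRY_2_Barcode_418436 held 1.80% of bone marrow in mouse 5 against 0.169% to 0.221% in the others, and 4.72% of spleen in mouse 7 against 1.02% to 1.34% in the others.

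Mice of the same origin resembled each other more closely in GMP than in LSK bone marrow. The Bray-Curtis distance between a pair of mice averaged 23.2% over the 3 LSK pairs (22.1% to 25.2%) and 14.01% over the 6 GMP pairs (11.3% to 17.1%). In spleen it averaged 12.4% over the LSK pairs (9.46% to 14.8%) and 14.6% over the GMP pairs (10.4% to 17.5%), with overlapping ranges. Pairs share mice, so these distances carry no test. The 10 largest clones of a pair of mice had on average 7.33 clones in common in LSK bone marrow, 8.67 in GMP bone marrow, 8 in LSK spleen and 9.17 in GMP spleen. By presence alone the origins were close: of the clones detected in either mouse of a pair, both mice had 47.3% in LSK and 49.8% in GMP bone marrow, and 55.0% and 54.9% in spleen. In bone marrow, 64 of the 189 clones detected in any LSK mouse were detected in all 3 and together held 95.2% of reads. In the GMP mice, 45 of 155 were detected in all 4 and held 96.5%. Detection in all 3 and in all 4 mice are unlike rules, so these counts are not compared between the origins.

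Outgrowth was measured against the pool for each clone at or over 100 CPM there. In bone marrow, 18 of 679 LSK clones (2.65%) were at least 2 times their pool share in every mouse, as were 11 of 607 GMP clones (1.81%). In spleen the counts were 12 LSK clones (1.77%) and 7 GMP clones (1.15%). Of these, 11 LSK clones and 7 GMP clones met the rule in both tissues. Clones at or below 1/2 of their pool share in every mouse made up 83.8% of LSK and 86.2% of GMP clones in bone marrow, and 93.4% and 96.2% in spleen. These counts require agreement of 3 mice in one origin and 4 in the other and are not compared between them.

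Counted within single mice, more LSK than GMP clones had expanded in bone marrow. Clones at or over 100 CPM and at least 2 times their pool share numbered 43, 32 and 34 in LSK bone marrow and 22, 16, 24 and 19 in GMP bone marrow. The groups did not overlap, and the log2 difference was 0.85, a ratio of 1.80 (exact permutation p = 0.0286, adjusted 0.0508). The LSK bone marrows also had more detected clones, 110 to 126 against 80 to 98, from pools of 679 and 607 clones. The ratio was not adjusted for either, so it is not separate from the difference in detected clones. In spleen the counts were 18, 14 and 21 against 12, 8, 17 and 8, which overlap (exact permutation p = 0.114). The 17 is GMP mouse 7, where 5 detected barcodes absent from the pool count as expanded by the rule, as does 1 in GMP mouse 5. With pool barcodes only, the log2 difference in spleen was 0.86 in place of 0.71 (exact permutation p = 0.0286, adjusted 0.0457). Clones under 100 CPM in the pool contributed little: they held 0.608%, 0.841% and 0.418% of LSK bone marrow and 0.150%, 0.148%, 0.200% and 0.115% of GMP bone marrow, without overlap. In spleen they held 0.083%, 0.056% and 0.178% in LSK mice and 0.246%, 0.152%, 2.96% and 0.022% in GMP mice. The 2.96% is GMP mouse 7, and without it the spleen difference was -0.034 percentage points in place of -0.74.

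Pool abundance went with detection in both origins. In the most abundant of 5 groups of about equal number of pool clones, 42.9% ± 5.62 (SD, n = 3) of LSK clones and 41.0% ± 2.12 (SD, n = 4) of GMP clones were detected in bone marrow. In the least abundant group the values were 4.44% for LSK and 3.10% ± 1.41 for GMP. Spleen gave 27.9% ± 1.95 and 29.5% ± 4.07 for the most abundant group, and 3.95% ± 0.428 and 1.24% ± 0.477 for the least abundant. Across pool clones within a mouse, Pearson's r of log2 shares (with 10 CPM added) was 0.419 to 0.467 in LSK and 0.454 to 0.558 in GMP bone marrow. In spleen it was 0.355 to 0.392 and 0.407 to 0.481. These r values are over 679 and 607 clones that share a library, clones are not replicates, and most of them were not detected. Among detected clones alone, Spearman's rho was 0.217 to 0.258 in LSK and 0.217 to 0.370 in GMP bone marrow, and -0.039 to 0.070 and -0.011 to 0.234 in spleen. This rho is taken over clones selected by their share in the mouse, which narrows the range. Over all pool clones rho was 0.394 to 0.515 in LSK and 0.449 to 0.841 in GMP bone marrow, and 0.365 to 0.391 and 0.437 to 0.488 in spleen. The highest rho, 0.841, and the highest r, 0.558, were both in bone marrow of GMP mouse 8. The other GMP bone marrows had a rho of 0.449 to 0.534 and an r of 0.454 to 0.505. Mouse 8 had 764 clones above 0 there, against 213 to 263 in the others. Whether these faint clones raised its values was not tested.

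**Figure D4:**
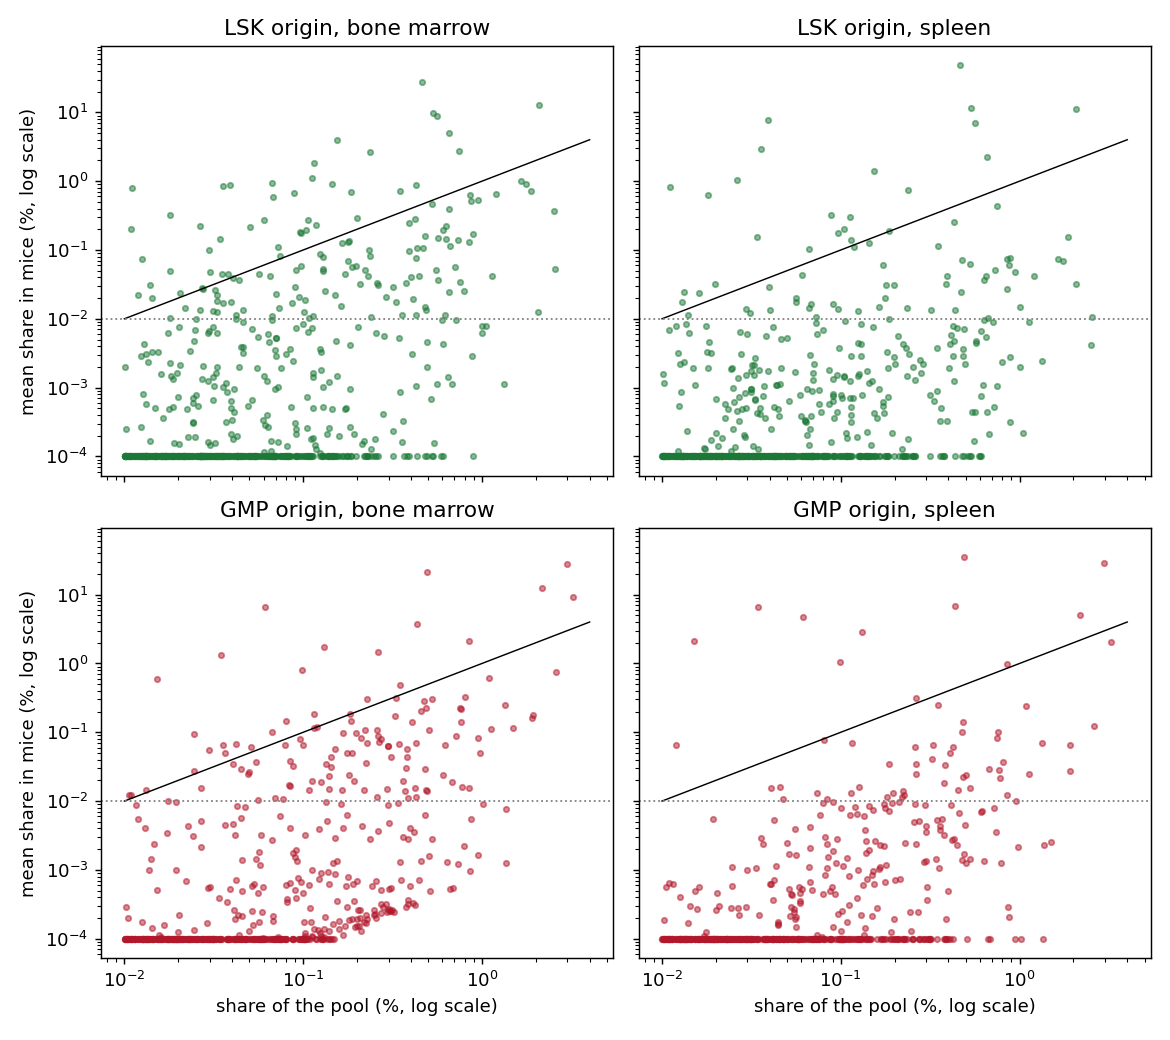
Mean share in the mice against share of the pool (percent of own-library reads, log scales), 1 point per clone at or over 100 CPM in the pool, by origin (rows) and tissue (columns). The black line marks equal shares, the dotted line 0.01%, and points on the bottom edge are clones at or under 0.0001%; 83.8% of LSK and 86.2% of GMP clones lay at or below 1/2 of their pool share in every bone marrow.

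Counted to rank 50, the leading clones of the pool held a smaller share of LSK than of GMP mice. The 50 largest pool clones held 44.8%, 46.9% and 48.8% of LSK bone marrow and 80.7%, 79.2%, 83.5% and 84.1% of GMP bone marrow, a difference of -35.0 percentage points. In spleen they held 33.4%, 31.3% and 35.5% against 87.5%, 78.5%, 74.1% and 80.7%, a difference of -46.8 points. Both comparisons had the smallest exact permutation p of 0.0286 (adjusted 0.0508). In the pools themselves the same clones held 46.2% for LSK and 47.6% for GMP. The 10 largest pool clones held 16.5% of LSK and 51.3% of GMP bone marrow, and 11.5% and 36.8% of spleen, from 18.1% and 20.4% of the pools (exact permutation adjusted p = 0.0508 in each tissue). A single clone made up the larger part of each of these shares. For GMP it was mCHERRY_2_Barcode_626161, described above, with a mean of 28.2% of bone marrow and 29.3% of spleen. For LSK it was GFP_Barcode_7785, with a mean of 12.8% of bone marrow and 11.1% of spleen.

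The size of this difference depended on how many pool clones were counted. GFP_Barcode_1859 ranked 60th in the LSK pool and mCHERRY_2_Barcode_283858 ranked 41st in the GMP pool, although their pool shares, 0.462% and 0.491%, were close. With 60 pool clones, an alternative added after seeing the data, the share was 75.1% in LSK and 82.1% in GMP bone marrow, and 81.5% and 80.3% in spleen. With 100 it was 77.8% and 83.8% in bone marrow, and 82.0% and 80.8% in spleen, so the spleen difference changed sign. With 40, which leaves out both clones, the shares were 27.7% and 55.9% in bone marrow. In spleen they were 14.7% and 38.4%, still lower in LSK mice. Those 40 include GFP_Barcode_7785, averaging 12.8% of LSK bone marrow and 11.1% of spleen. mCHERRY_2_Barcode_626161 is also among them, averaging 28.2% of GMP bone marrow and 29.3% of spleen. Without the clone of highest mean share per origin, the difference at 50 was -9.59 points in bone marrow (exact permutation adjusted p = 0.0508). In spleen it was -7.77 points (exact permutation adjusted p = 0.229), with the limit of that removal given below.

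**Figure D5:**
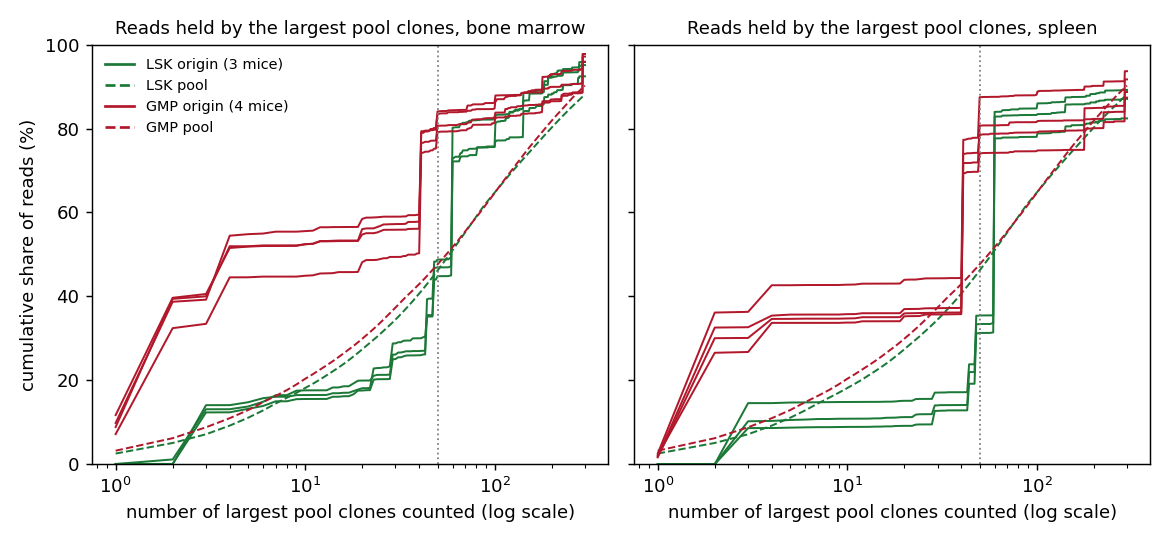
Cumulative share of own-library reads (percent) held by the largest pool clones, against how many are counted (log scale), 1 solid line per mouse (green LSK, red GMP) and dashed lines for the pools; the dotted line marks 50. GMP lines step up at rank 41 and LSK lines at rank 60.

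The largest clones of the pools fared differently. The leading LSK pool clones were GFP_Barcode_13743, at 2.55% of the pool, and GFP_Barcode_61835, at 2.52%. The first held at most 0.079% of any LSK library. The second held 1.09% of bone marrow in mouse 2 and at most 0.006% elsewhere. In GMP mice, the pool leaders mCHERRY_2_Barcode_4128 and mCHERRY_2_Barcode_626161 were both among the 5 largest clones of the mice, whereas mCHERRY_2_Barcode_205626, 3rd in the pool at 2.60%, averaged 0.441%. Of the 50 largest pool clones, 12 LSK and 13 GMP clones were detected in no bone marrow, and 24 and 19 in no spleen. In bone marrow, 5 LSK and 6 GMP clones of the 50 exceeded their pool share in every mouse. Such counts rest on 3 LSK and 4 GMP mice and are not compared between the origins.

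The same contrasts were looked for in the 4 Ptprca mice that received both origins at once, where each library was rescaled on its own and set against the mixed pool. In bone marrow, the LSK library had more detected clones (103 against 70.5 on average), more effective clones (13.04 against 9.15), more clones for 90% of reads (18.3 against 9) and more expanded clones (33.5 against 19) than the GMP library of the same animal, each in 4 of 4 mice. In spleen, the largest LSK clone held 57.8% ± 4.80 of its library and the largest GMP clone 34.5% ± 1.81 of its own (SD, n = 4), again in 4 of 4 mice. The share of the 50 largest pool clones went the other way there, at 75.3% for LSK and 64.0% for GMP in bone marrow. In spleen it was 83.9% and 44.4%, LSK being higher in 4 of 4 mice in each tissue. These 50 were ranked in the mixed pool, so they need not be the clones counted above. Whether a changed rank of a leading clone made this reversal was not tested. With 4 animals an exact sign-flip test cannot reach 0.05, so none was run.

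NSG mice, a severely immunodeficient strain without lymphocytes, gave the same comparison with 4 mice of each origin. There, clones for 90% of reads in bone marrow were 5.50 ± 1.29 for LSK and 6.75 ± 1.26 for GMP (SD, n = 4). The LSK minus GMP difference in that measure was 1.09 log2 in Ptprca and -0.31 log2 in NSG mice, and it differed between hosts by 1.40 (permutation within host, all 2450 assignments, p = 0.00571, adjusted over 16 tests 0.0457). For the largest clone of spleen, the LSK minus GMP difference was 13.1 percentage points in Ptprca and -3.96 points in NSG mice, and it differed between hosts by 17.1 points (permutation p = 0.00204, adjusted 0.0327). These 2 of 16 tests passed. The permutations assume no origin difference in either host, which is not the same as an equal difference in both. For effective clones in bone marrow the hosts differed by 0.80 log2 (permutation p = 0.0098, adjusted 0.0522), which did not pass. The hosts were deposited in separate tables, but every measure was taken within 1 column.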

How the data were processed

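Barcodes amplified from genomic DNA were counted by sequencing. The extraction text in the labels is that of a droplet single-cell assay, which leaves the DNA preparation unsure. The deposited values are CPM, which the authors scaled to 1000000 per column after filtering barcodes and collapsing 2 PCR duplicates per mouse tissue, per the file headers and names. No source says whether those were added up or averaged. Bowtie 1.2.2 and R 3.6 are listed in the submitters' processing notes, and their settings are not given in the sources used here. Read totals were taken from the CPM steps, which gave whole reads for 100% of values (within 0.01 of a read), and served only to state depth.

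Each column was rescaled to its own barcode library. Measures were compared with exact two-sided permutation tests over mice and Benjamini-Hochberg adjustment (Python 3.11.15, numpy 2.4.6, scipy 1.17.1, pandas 2.3.3), tested on simulated data. Counts were compared as log2. Named clones were, per origin, the 5 with the highest mean share over mice (tissues averaged), the 3 largest in the pool, the 3 with the highest fold over the pool (mean at or over 0.1%, pool at or over 100 CPM), and the most and least variable of the 10 largest. The members, measures and clones were chosen with earlier results of these data known. Alternatives were other minima, ranks, diversity indices and pool limits, CPM as deposited, thinning to 5384923 reads, pool barcodes only, averaged tissues, and leaving out mice or the 3 libraries with at least 0.1% of reads from the other library or 1% in barcodes of no pool.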

Additional observations from a re-analysis of the deposited data

Results flagged for a closer look

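Of 48 groups of 4 GMP values examined, 7 had 1 sample far from the others by Dixon's criterion. For independent, normally distributed values, chance alone meets it in about 1 of 20 groups. The groups here reuse the same 4 mice in related measures, so 7 of 48 cannot be set against that rate. In bone marrow, GMP mouse 8 had 10 clones for 90% of reads against 13 in each other GMP mouse, and 764 barcodes above 0 against 213 to 263. In spleen, GMP mouse 7 had 9.47 effective clones, 1070 barcodes above 0 and 2.96% of reads in clones rare in the pool. mCHERRY_2_Barcode_418436 stood apart at 1.80% of bone marrow in mouse 5 and at 4.72% of spleen in mouse 7. Its pool share was 0.0152%.

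The origin difference differed between Ptprca and NSG hosts by 1.40 log2 for clones for 90% of bone marrow reads and by 17.1 percentage points for the largest clone of spleen.

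Barcodes outside the transplanted library were also counted. The highest share of the other library was 0.0523% in LSK mice (spleen of mouse 2) and 0.944% in GMP mice (bone marrow of mouse 6). Barcodes found in no pool reached 0.0605% in LSK mice (spleen of mouse 2) and 2.92% in GMP mice (spleen of mouse 7). BFP barcodes, which no sample label mentions, reached 0.0121% in LSK mice and 0.0274% in GMP mice. How the origin differences moved when such barcodes were removed, kept in the total, or left out with the 3 libraries that held most of them is given with the alternatives.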

How the results depend on the processing

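Of 232 alternative values for the 16 origin comparisons, 193 kept their direction and their side of the threshold, 29 changed sign and 10 passed the threshold. In bone marrow the differences in effective clones, clones for 90% of reads, top 10 share, top 50 pool share and expanded clones never changed sign, nor did expanded clones in spleen. The 10 passes were all with pool barcodes only, where 1 more comparison reached the smallest p and the adjusted p was therefore 0.0457. They were detected clones 0.39, effective clones 0.68, clones for 90% of reads 1.12, top 10 share -11.4, top 50 pool share -35.0, pool-rare share 0.495 and expanded clones 0.85 in bone marrow. In spleen they were the largest clone 12.8, top 50 pool share -47.4 and expanded clones 0.86.

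For detected clones the sign changed in spleen at a minimum of 10 CPM (-0.44), above 0 (-0.31) and above 0 after thinning (-0.30), and in bone marrow above 0 (-0.010) and after thinning (-0.021). Clones in spleen turned for 50% (-0.33) and 99% (-0.52) of reads and with CPM as deposited (-0.0025). Other spleen values that turned were the 2 largest clones (-2.70), the top 5 (1.28) and the pool's top 100 (1.18) and top 60 (1.17). Pool-rare share turned in bone marrow under 10 CPM (-0.025), at 0 in the pool (-0.026) and with tissues averaged (-0.135), and in spleen with pool barcodes only (0.066). Effective clones of spleen turned with pool barcodes only (0.032), tissues averaged (0.30), the 3 libraries left out (0.046) and the largest clones removed (0.63). The largest clone turned in bone marrow with tissues averaged (6.45) and in spleen with the largest clones removed (-23.6). That removal, added after seeing the data, took out the clone with the highest mean per origin, which for GMP was not the largest clone in spleens of mice 6, 7 and 8, so its spleen values cannot be read as an origin difference. Apart from pool barcodes and removals, the cause was not tested.

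Leaving out 1 mouse gave -0.15 to 0.046 for effective clones of spleen, -0.048 to 0.16 for clones for 90% of spleen reads and -2.73 to 1.92 for the largest clone of bone marrow. Such fits have 15 or 20 assignments and cannot reach 0.05. No paired analysis was possible because LSK mice 1 to 3 and GMP mice 5 to 8 share no mouse number. Depth was varied by thinning only for clones above 0.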
